A study of Mus musculus with 12 samples.

Results

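The genes that copy DNA in S phase were compared between β-catenin KO and wildtype embryonic mouse pancreas. The list holds 43 genes, from origin recognition and licensing through the replicative helicase, polymerases, sliding clamp and nucleotide supply to the G1/S regulators. It was drawn up with earlier results of these data known, and its probe sets were taken by gene symbol. Of the 43 genes, 42 were measured, on 93 of the 45037 probe sets analysed. Chaf1a, the large subunit of chromatin assembly factor 1, has no probe set that carries it as the only symbol. The KO pancreata were Pdx1Cre/+; β-catenin flox/flox, with loxP sites in the second and the sixth intron of the floxed allele, and the controls were wildtype embryos. KO embryos came from an intercross of Pdx1Cre/+; β-catenin flox/+ mice, so wildtype stands here as the labels give it, with no further word on whether a control carried Cre or a single floxed allele. Pancreata were taken at E14.5 (4 KO and 2 wildtype) and at E16.5 (4 KO and 2 wildtype), each on its own Affymetrix MOE430 2.0 array. One text deposited with the arrays writes E14.6 for the earlier day. Pdx1 is a transcription factor of the early pancreatic epithelium, so Cre acts in the epithelium and its descendants, may act in a mosaic, and leaves the mesenchyme, vessels and nerves of the gland with their β-catenin gene.

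Before a cell divides, the origin recognition complex with CDC6 and CDT1 loads the MCM2-7 helicase onto origins in G1. In S phase CDC45 and the GINS complex join MCM2-7, primase and DNA polymerase α start each strand, and polymerases δ and ε extend it on the PCNA clamp, which the RFC complex loads. Most of these genes are transcribed at the G1/S boundary by E2F factors, so their RNA in a tissue tracks how many of its cells are cycling. In the embryonic pancreas the dividing cells include the epithelial progenitors, the young acinar cells and the mesenchyme around them.

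Each deposited value is the ratio of a probe set's signal to the mean of the 2 wildtype pancreata of the same day, so 1 stands for wildtype on average, and how abundant a transcript is, or how it changes between the days, cannot be read. Marker genes could for the same reason be read as ratios but not as present or absent, and the labelled tissue could not be checked against them. Ctnnb1, which encodes β-catenin, has 3 probe sets, and their position with respect to the removed exons is not known here. At E14.5 all 4 KO lay below both wildtype on 2 of them (0.701 to 0.956) and above both on the other (1.11 to 1.31). At E16.5 the KO lay below both wildtype on that last one (0.662 to 0.709) and overlapped on the 2 others (0.620 to 1.04). None passed at either day (limma adjusted p = 0.152 to 0.920), so they do not check the labels. Log2 ratios were compared with limma, and p was adjusted over all 45037 probe sets with a limit of 0.05. The number of pancreata, in particular the 2 wildtype of each day, limits the precision.

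At E14.5 the replication genes lay mostly under wildtype in the KO, and no single one passed the test. Of the 93 probe sets, 75 had a negative log2 fold change (44.6% of all probe sets had one), with a median of -0.29 against 0.02 over all probe sets. In 28 of the 93 all 4 KO pancreata lay below both wildtype, as 8.06% of all probe sets did, and in 3 of 93 all lay above, as 8.17% did. None of the 93 was called (0.0111% of all probe sets were, 5 in number). At an unadjusted p under 0.05, limma placed 24 of the 93 lower and 0 higher, where 4.52% and 2.34% of all probe sets stood. With quantile normalization these counts were 9 and 0 and the median was -0.17. In 29 of the 42 genes every probe set was lower, and in 0 every probe set was higher. Of the 42, 10 have a single probe set. Of the 32 with several, 19 were lower on all of them and 13 had both signs. The share of all genes with such a pattern was not computed. These are whole organs, in which fewer dividing cells and less RNA per cell cannot be told apart.

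At E16.5 the same genes were mostly at or above wildtype in the KO. Of the 93 probe sets 71 had a positive log2 fold change (56.1% of all probe sets had one), with a median of 0.15 against 0.03 over all. The 4 KO lay above both wildtype in 23 of 93 (14.5% of all probe sets) and below in 1 (11.1%). limma called 3 of the 93, all higher in the KO, where 2.62% of all probe sets were called, 0.802% higher and 1.82% lower. These were Pole2, Rpa1 and Rfc1, each on 1 of its probe sets. At an unadjusted p under 0.05, 16 of 93 were higher and 0 lower, where 8.48% and 8.16% of all probe sets stood, and with quantile normalization 4 and 0. Without WT_628G the median was -0.0022, and without WT_622A it was 0.36, so at this day the median rests on which wildtype it is set against.

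**Figure D1:**
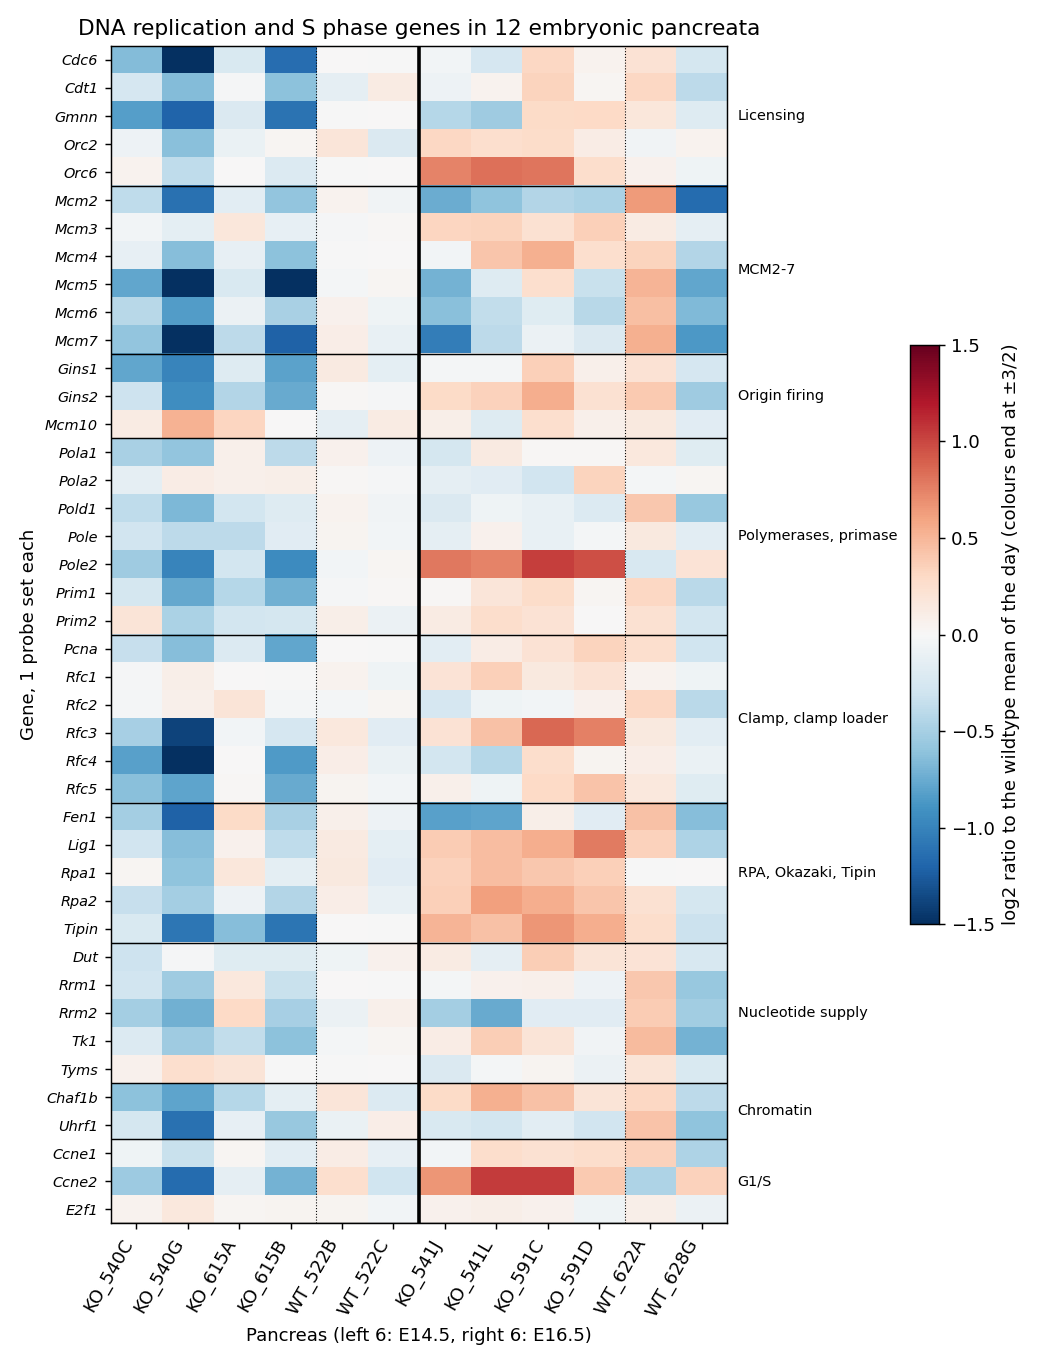
Log2 ratio to the wildtype mean of the day for the 42 measured genes, 1 probe set each chosen by its ID alone, in rows by role, and for the 12 pancreata in columns, with KO left of wildtype within each day (E14.5 left of the thick line, E16.5 right). Blue is below and red above the wildtype mean. At E14.5, 36 of the 42 genes were lower in the KO (47% of all genes), and KO_540G is the bluest column. At E16.5, 27 were higher (57.5% of all genes). The wildtype of a day take opposite colours because their own mean is the reference, so only the depth of their colours can be read. Median log2 ratios over the 42 genes were 0.23 in WT_622A and -0.27 in WT_628G, against 0.03 and -0.03 in the wildtype of E14.5.

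Because E2F factors are known to act on many of these genes, their promoters were searched for shared words. RefSeq windows from 250 bases before to 50 bases after the start site (build GRCm38.p6) were at hand for 34 of the 43 genes, in 40 windows. The word of E2F factors was taken as TTTCCCGC, TTTGGCGC, TTTCGCGC or TTTGCCGC on either strand. It stood in a window of 12 of the 34 genes (35.3%), against 2.6% of the 27025 genes with a window and 2.26% of all 32851 windows. The 12 genes were Cdc6, Cdt1, Lig1, Mcm3, Mcm5, Mcm6, Mcm7, Pola1, Pold1, Pole2, Rfc3 and Uhrf1. CCAAT, the word of NF-Y, on either strand, stood in 19 of 34 genes (55.9%, against 41.1% of all genes). TTTGAA, the core of the CHR element of mitotic genes, on either strand, stood in 2 of 34 (5.88%, against 20.2%). Of the 18 E2F words in these windows 1 shared letters with a CCAAT, none with a TTTGAA, and 2 pairs of E2F words shared letters with each other. These are matches of letters and not bound sites.

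The windows of 5 genes with the word are shown because they hold it in the clearest form, as single words, as back-to-back words and on both sides of the start site. Capitals mark the E2F words, and every sequence runs 5′ to 3′ along its gene.
Cdc6, chr11:98907901-98908200, plus strand: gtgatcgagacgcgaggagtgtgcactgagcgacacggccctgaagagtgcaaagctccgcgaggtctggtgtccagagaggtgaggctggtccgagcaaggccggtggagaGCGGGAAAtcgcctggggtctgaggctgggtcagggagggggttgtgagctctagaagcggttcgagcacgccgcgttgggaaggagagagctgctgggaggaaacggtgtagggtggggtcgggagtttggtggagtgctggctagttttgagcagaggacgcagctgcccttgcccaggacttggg
Mcm5, chr8:75109259-75109558, plus strand: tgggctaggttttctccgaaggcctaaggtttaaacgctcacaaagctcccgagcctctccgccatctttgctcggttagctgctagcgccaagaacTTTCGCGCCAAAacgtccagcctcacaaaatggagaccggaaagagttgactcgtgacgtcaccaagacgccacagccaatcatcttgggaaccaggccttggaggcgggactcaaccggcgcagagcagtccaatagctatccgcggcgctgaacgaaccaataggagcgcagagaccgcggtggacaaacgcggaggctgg
Mcm6, chr1:128359656-128359955, minus strand: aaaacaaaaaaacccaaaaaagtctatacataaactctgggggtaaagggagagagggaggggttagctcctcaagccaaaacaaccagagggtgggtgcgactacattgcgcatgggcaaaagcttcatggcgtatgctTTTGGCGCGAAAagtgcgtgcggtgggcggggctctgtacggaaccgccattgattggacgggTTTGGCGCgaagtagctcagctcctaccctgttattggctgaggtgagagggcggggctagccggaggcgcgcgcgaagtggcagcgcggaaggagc
Mcm7, chr5:138171834-138172133, minus strand: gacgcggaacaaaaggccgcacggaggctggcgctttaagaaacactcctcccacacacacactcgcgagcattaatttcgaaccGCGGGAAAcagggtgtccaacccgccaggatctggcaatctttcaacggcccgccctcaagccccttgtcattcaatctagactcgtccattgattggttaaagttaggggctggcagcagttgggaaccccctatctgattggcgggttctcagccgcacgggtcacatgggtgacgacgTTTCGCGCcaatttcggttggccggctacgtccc
Pole2, chr12:69228141-69228440, minus strand: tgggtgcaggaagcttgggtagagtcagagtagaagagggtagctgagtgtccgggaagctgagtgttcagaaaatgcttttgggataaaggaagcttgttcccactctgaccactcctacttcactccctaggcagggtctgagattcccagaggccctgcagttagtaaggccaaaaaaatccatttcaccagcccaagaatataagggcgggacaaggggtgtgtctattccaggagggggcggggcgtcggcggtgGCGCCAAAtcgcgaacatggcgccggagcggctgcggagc
In Mcm5 and Mcm6 a word on one strand runs into a word on the other, so that the pair reads almost the same on both strands. In the Mcm7 window shown, the word after the start site runs into a CCAAT.

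The windows of Rpa1 and Rfc1 are shown beside them because, with Pole2, these genes carry the calls at E16.5. Neither holds an E2F word of the 4 searched, so there are no capitals.
Rpa1, chr11:75348334-75348633, minus strand: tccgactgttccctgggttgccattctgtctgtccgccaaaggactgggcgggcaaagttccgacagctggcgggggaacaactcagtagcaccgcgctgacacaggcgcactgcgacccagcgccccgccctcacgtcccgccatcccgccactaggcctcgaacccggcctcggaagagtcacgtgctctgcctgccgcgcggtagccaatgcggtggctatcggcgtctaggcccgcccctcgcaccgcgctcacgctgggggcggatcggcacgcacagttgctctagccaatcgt
Rfc1, chr5:65335590-65335889, minus strand: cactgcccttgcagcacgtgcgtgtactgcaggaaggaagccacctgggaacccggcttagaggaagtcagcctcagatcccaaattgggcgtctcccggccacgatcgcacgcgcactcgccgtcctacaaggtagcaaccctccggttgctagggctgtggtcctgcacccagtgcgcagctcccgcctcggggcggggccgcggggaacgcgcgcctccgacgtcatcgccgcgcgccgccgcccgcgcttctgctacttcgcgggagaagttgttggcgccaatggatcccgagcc
The calls at E16.5 therefore fell on a gene with the word and on genes without it.

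Genes with and without the word were set side by side as a description, without a test. The 12 with it were lower at E14.5 in 12 of 12 cases, their median log2 fold change being -0.48, and of the 21 measured genes without it 16 were lower, the median being -0.25. At E16.5, 6 of 12 with the word were higher (median 0.01), and 15 of 21 without it (median 0.16). The distributions overlapped at both days.

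**Figure D2:**
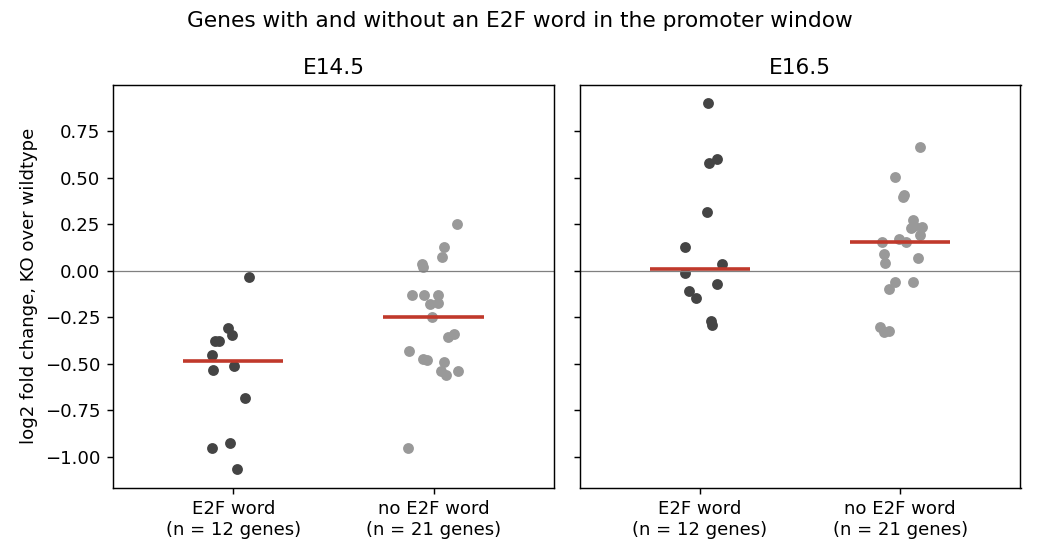
Log2 fold change, KO over wildtype, of single genes (points) with and without an E2F word in the promoter window, at E14.5 (left) and E16.5 (right), 1 probe set per gene. Red lines are medians. At E14.5 the points with a word lie all below 0, and at E16.5 both groups spread around 0.

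In what follows KO ratios at E14.5 are given in the order of pancreata KO_540C, KO_540G, KO_615A and KO_615B against WT_522B and WT_522C, and at E16.5 in the order KO_541J, KO_541L, KO_591C and KO_591D against WT_622A and WT_628G. Where a gene has several probe sets and none is specified, its values are those of the chosen one. Means are over the 4 KO (SD, n = 4), and fold changes are differences of mean log2 ratios, KO minus wildtype, with standard errors.

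On the chosen probe sets all 5 licensing genes were lower in E14.5 KO (median log2 fold change -0.38). Cdc6, whose protein recruits the helicase to origins, stood at 0.639, 0.290, 0.850 and 0.453 in KO pancreata against 1.001 and 0.999 in wildtype. All 4 KO lay under both wildtype, and they ranged widely among themselves. Its log2 fold change was -0.95 ± 0.33, which did not pass (limma adjusted p = 0.629). Gmnn encodes geminin, which holds CDT1 in check once S phase has begun, and stood at 0.565, 0.434, 0.863 and 0.464 in KO against 0.996 and 1.004 in wildtype. As for Cdc6, KO_540G was the lowest KO and KO_615A the one closest to wildtype. Cdt1, the loading partner of CDC6, averaged 0.779 ± 0.168 and overlapped with wildtype. Orc2, a subunit of the origin recognition complex, averaged 0.888 ± 0.163 and also overlapped.

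At E16.5 the licensing genes were higher in 4 of 5 on the chosen probe sets and on 8 of 9 probe sets in all. Orc6, another subunit of that complex, stood at 1.68, 1.78, 1.75 and 1.20 in KO against 1.04 and 0.955 in wildtype. All 4 KO lay above both wildtype, KO_591D well under the others. The log2 fold change was 0.66 ± 0.17 and missed the limit (limma adjusted p = 0.0586). At E14.5 the same probe set averaged 0.918 ± 0.124 and overlapped with wildtype. Orc2 averaged 1.18 ± 0.0699 and 1.16 ± 0.0975 on 2 of its 3 probe sets, with every KO above both wildtype (limma adjusted p = 0.564 and 0.449), and 1.02 ± 0.0351 on the last. Cdt1 averaged 1.07 ± 0.133 on its chosen probe set, and on another 1.30 ± 0.128 with every KO above both wildtype (limma adjusted p = 0.197). Cdc6 averaged 1.02 ± 0.164 and Gmnn 0.971 ± 0.294 at E16.5, with KO pancreata on both sides of the wildtype mean. For Gmnn, KO_541J and KO_541L were low (0.745 and 0.689) and KO_591C and KO_591D high (1.22 and 1.23).

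The MCM2-7 helicase unwinds DNA ahead of the fork, and its subunits were lower in the KO at E14.5 on every one of 19 probe sets (6 of 6 genes, chosen probe sets, median log2 fold change -0.51). Mcm7 is the gene whose probe sets all had the 4 KO under both wildtype, 4 of 4. On the first, the KO ratios were 0.664, 0.345, 0.764 and 0.430 against 1.07 and 0.927 in wildtype. This gave a log2 fold change of -0.93 ± 0.40 (limma adjusted p = 0.696). The other 3 probe sets gave -0.59 ± 0.23, -0.39 ± 0.20 and -0.43 ± 0.19 (limma adjusted p = 0.677, 0.756 and 0.706), so the direction was shared and the size was not. Mcm5 stood at 0.582, 0.313, 0.856 and 0.332 in KO against 0.982 and 1.02 in wildtype, a log2 fold change of -1.07 ± 0.43 (limma adjusted p = 0.677). Its other 2 probe sets gave -0.29 and -0.06, so here 1 probe set carries the size. On their chosen probe sets Mcm2, Mcm4 and Mcm6 averaged 0.697 ± 0.184, 0.783 ± 0.156 and 0.741 ± 0.154, with all 4 KO below wildtype in each. Their other probe sets overlapped with wildtype, with log2 fold changes of -0.17 (Mcm2), -0.32 (Mcm4), and -0.08 and -0.03 (Mcm6). Mcm3 averaged 0.979 ± 0.101 on its chosen probe set, and its 5 probe sets ran from -0.73 to -0.04 on the log2 scale.

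At E16.5 the helicase genes divided by probe set. Where every ratio is given below, the wildtype pair spread wider than the KO. Mcm6 stood at 0.647, 0.774, 0.882 and 0.749 in KO against 1.37 and 0.632 in wildtype. The KO thus lay between both wildtype, and the log2 fold change of -0.29 ± 0.27 (limma adjusted p = 0.673) was 0.26 without WT_622A. The other 2 probe sets of Mcm6 gave 0.34, with every KO above both wildtype (limma adjusted p = 0.416), and 0.15. Mcm6 thus had no shared direction at that day. On 1 of the 2 probe sets of Mcm2, the KO stood at 0.798, 0.727, 0.746 and 0.861 against 1.38 and 0.625 in wildtype. Here too, as on the first probe set of Mcm6, the KO lay inside the wildtype pair. The log2 fold change of -0.25 ± 0.25 (limma adjusted p = 0.714) was 0.32 without WT_622A. Mcm3 alone among the chosen probe sets had every KO above both wildtype, at 1.25, 1.26, 1.18 and 1.28 against 1.09 and 0.913, and did not pass (log2 fold change 0.32, limma adjusted p = 0.163). On the chosen probe sets 4 of the 6 genes were lower (median log2 fold change -0.19), while over all 19 probe sets 14 were higher and 5 lower (median 0.23).

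The GINS complex and MCM10 convert the loaded helicase into a moving one. Both probe sets of Gins2 had the 4 KO under both wildtype at E14.5. The first read 0.807, 0.523, 0.739 and 0.590 in KO against 1.01 and 0.987 in wildtype, a log2 fold change of -0.61 ± 0.23 (limma adjusted p = 0.649). The second gave -0.33 ± 0.17 (limma adjusted p = 0.776). Gins1 stood at 0.582, 0.505, 0.877 and 0.573 in KO against 1.10 and 0.905 in wildtype, a log2 fold change of -0.68 ± 0.21 (limma adjusted p = 0.569). It was among the 4 lowest moderated t of the list at that day. The other probe set of Gins1 gave -0.33 and overlapped with wildtype. Mcm10 went both ways by probe set. Its first read 1.09, 1.44, 1.25 and 1.01 in KO against 0.913 and 1.09 in wildtype (log2 fold change 0.25 ± 0.17, limma adjusted p = 0.850), among the 4 highest t of the list. A second gave -0.62 with the KO at 0.633, 0.604, 0.897 and 0.528 against 0.995 and 1.01 in wildtype, and the last 0.03. At E16.5 the KO mean of Gins2 was 1.28 ± 0.124 and that of Gins1 1.07 ± 0.144, both overlapping with wildtype.

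Among the polymerase and primase genes, Pole2, the second subunit of polymerase ε, changed most between the days. At E16.5 it stood at 1.73, 1.67, 2.05 and 1.96 in KO pancreata against 0.843 and 1.16 in wildtype. All 4 KO lay well above both wildtype, and Pole2 rose with a log2 fold change of 0.90 ± 0.20 (limma adjusted p = 0.0383). At E14.5 it stood at 0.692, 0.502, 0.825 and 0.518 in KO against 0.975 and 1.02 in wildtype. There the 4 KO lay below both wildtype, among the 4 lowest t of the list, with a log2 fold change of -0.69 ± 0.20 (limma adjusted p = 0.541). The KO effect at E16.5 minus that at E14.5 was 1.59 ± 0.28 and passed the test of the difference (limma adjusted p = 0.0423). A second probe set of Pole2 gave 0.10 and 0.09 at the 2 days, so the values rest on 1 probe set. The E16.5 call was kept in 5 of the 12 fits that left out 1 pancreas (limma adjusted p = 0.0226 to 0.250), and was lost without KO_541J, KO_541L or KO_591C or without any of the 4 wildtype. The call of the difference was kept in 3 of 12, without KO_615A, KO_591D or WT_628G.

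**Figure D3:**
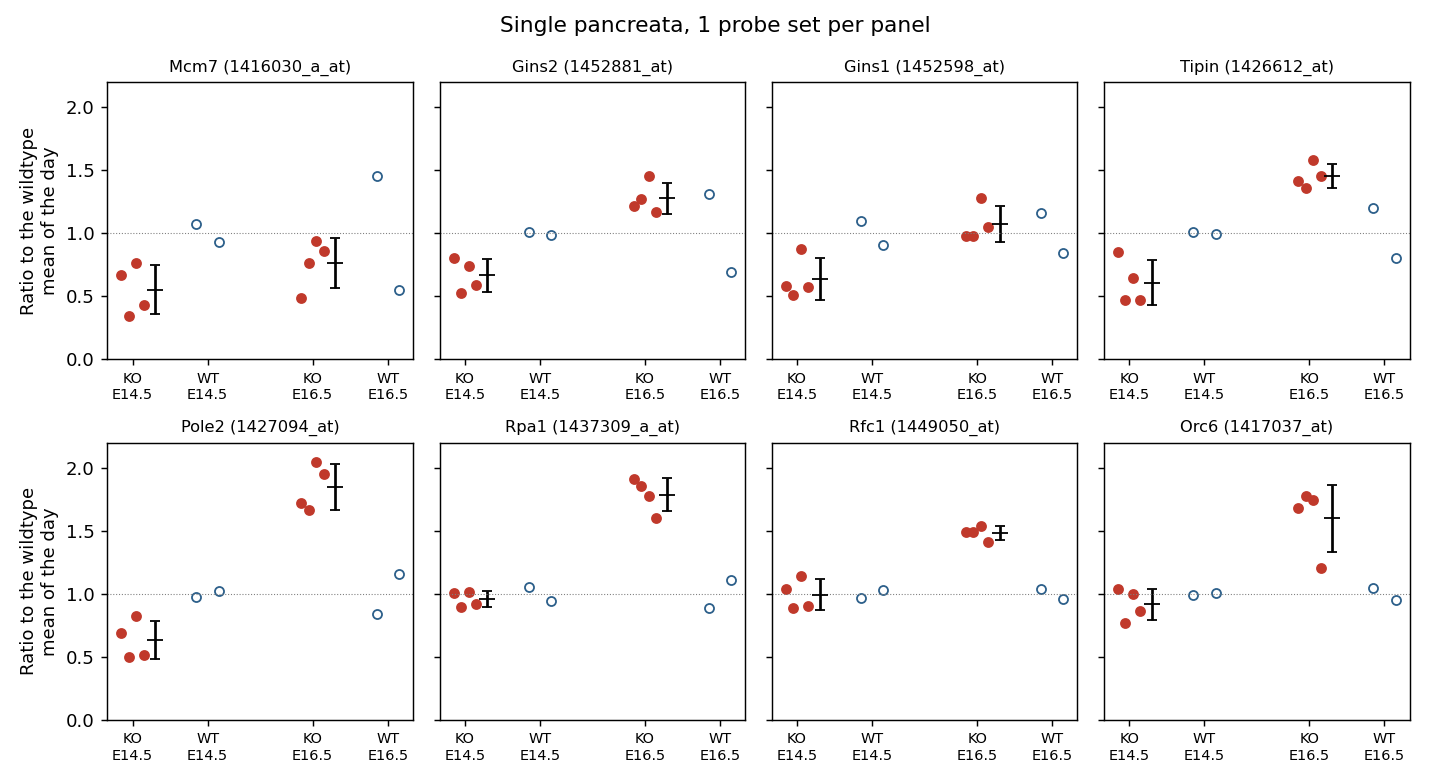
Ratio to the wildtype mean of the day (linear axis from 0) in single pancreata for 1 probe set of each of 8 genes, KO (filled red) left of wildtype (open blue) at each day. Black bars are KO mean and SD (n = 4), and the dotted line is the wildtype mean. In the upper row, and for Pole2, the 4 KO lie below both wildtype at E14.5. For Pole2, Rpa1, Rfc1 and Orc6 they lie above both at E16.5.

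None of the other polymerase subunits passed at either day. Pola2, the accessory subunit of polymerase α, has 3 probe sets. One read 0.892, 0.747, 0.757 and 0.763 in KO against 0.962 and 1.04 in wildtype at E14.5, a log2 fold change of -0.34 ± 0.11 (limma adjusted p = 0.590), and at E16.5 averaged 1.19 ± 0.0887. The other 2 gave 0.03 and 0.12 at E14.5, so the gene had no shared direction. Prim1, the catalytic primase subunit, averaged 0.694 ± 0.117 with all 4 KO below wildtype at E14.5, and Pole, the catalytic subunit of polymerase ε, 0.810 ± 0.0601. The other probe set of Prim1 averaged 0.811 ± 0.182 at that day and overlapped with wildtype. Pold1, the catalytic subunit of polymerase δ, averaged 0.775 ± 0.106 and Pola1, that of polymerase α, 0.798 ± 0.174, the last overlapping with wildtype. Prim2, the large primase subunit, averaged 0.881 ± 0.185. On these chosen probe sets the 5 genes averaged from 0.902 ± 0.0460 (Pold1) to 1.11 ± 0.0870 (Prim2) in E16.5 KO. Other probe sets stood higher there, with every KO above both wildtype for Pold1 (1.32 ± 0.0236, limma adjusted p = 0.282) and for Prim2 (1.33 ± 0.148, limma adjusted p = 0.144, and 1.16 ± 0.103, limma adjusted p = 0.587). None of them passed, and Pold1 had no shared direction at that day.

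PCNA is the clamp that holds polymerases to DNA, and the 5 RFC subunits open and load it. At E14.5 Pcna stood at 0.789, 0.644, 0.870 and 0.584 in KO against 1.004 and 0.996 in wildtype, a log2 fold change of -0.49 ± 0.19 (limma adjusted p = 0.677). Rfc4 spread the most, at 0.568, 0.224, 1.0 and 0.555 in KO against 1.07 and 0.931 in wildtype. Its value in KO_540G was the lowest of any member in any pancreas, while KO_615A was level with wildtype. Rfc3 and Rfc5 averaged 0.725 ± 0.253 and 0.706 ± 0.205 with the same low pancreas, and Rfc2 averaged 1.04 ± 0.0755.

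Rfc1, the large subunit of the clamp loader, did not follow the others at E14.5. The 3 probe sets of Rfc1 gave log2 fold changes of 0.02, -0.02 and 0.26 there, and the last, at 1.14, 1.03, 1.50 and 1.17 in KO against 0.975 and 1.03 in wildtype, was among the 4 highest t of the list (SE 0.18, limma adjusted p = 0.856). At E16.5 the second read 1.49, 1.50, 1.54 and 1.41 in KO against 1.04 and 0.959 in wildtype. The KO lay close together above both wildtype, and this probe set of Rfc1 rose with a log2 fold change of 0.57 ± 0.11 (limma adjusted p = 0.0256). The other probe sets gave 0.23 and 0.26 and did not pass (limma adjusted p = 0.228 and 0.535), so all 3 were positive and 1 was called. Its call was kept in 7 of 12 fits that left out 1 pancreas (limma adjusted p = 0.0175 to 0.142), and was lost without KO_541J, KO_541L or KO_591C or either wildtype of that day. Rfc3 averaged 1.51 ± 0.302 at E16.5 with all 4 KO above wildtype, highest in KO_591C and KO_591D (1.82 and 1.70), and did not pass (limma adjusted p = 0.396). The other probe set of Rfc3 averaged 1.06 ± 0.0474 there and overlapped with wildtype (log2 fold change 0.09).

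RPA coats the single strands that the helicase opens, FEN1 and LIG1 finish the Okazaki fragments of the lagging strand, and TIPIN, with TIMELESS, steadies the fork. In E14.5 KO all 5 genes of this group were lower (median log2 fold change -0.34), and 4 of 5 were higher at E16.5 (median 0.50), both on the chosen probe sets. Rpa1, the large subunit of RPA, carried the call with the smallest p of the list. At E16.5 it stood at 1.91, 1.86, 1.78 and 1.61 in KO against 0.891 and 1.11 in wildtype. The 2 groups stood clearly apart, and Rpa1 rose with a log2 fold change of 0.85 ± 0.12 (limma adjusted p = 0.00475). At E14.5 the same probe set read 1.01, 0.894, 1.02 and 0.920 in KO against 1.06 and 0.942 in wildtype, with the groups overlapping (log2 fold change -0.06 ± 0.12, limma adjusted p = 0.974). The effect at E16.5 minus that at E14.5 was 0.90 ± 0.17 and passed (limma adjusted p = 0.0477). The second probe set of Rpa1 also had every KO above both wildtype at E16.5, at 1.27, 1.38, 1.33 and 1.28 against 0.995 and 1.005 in wildtype, with a log2 fold change of 0.39 ± 0.18 that did not pass (limma adjusted p = 0.290). The E16.5 call of Rpa1 was kept in 12 of the 12 fits that left out 1 pancreas (limma adjusted p = 0.00284 to 0.0469). The call of the difference was kept in 2 of 12, without KO_591D and without WT_628G.

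Tipin went the way of Pole2 without passing at either day. At E14.5 it stood at 0.853, 0.473, 0.642 and 0.466 in KO against 1.01 and 0.992 in wildtype, a log2 fold change of -0.76 ± 0.23 (limma adjusted p = 0.556). At E16.5 it stood at 1.42, 1.36, 1.58 and 1.45 in KO against 1.20 and 0.801 in wildtype, a log2 fold change of 0.57 ± 0.23 (limma adjusted p = 0.227). The difference was 1.33 ± 0.32 (limma adjusted p = 0.134), with the KO on opposite sides of both wildtype at the 2 days. On its first probe set Rpa2, the middle RPA subunit, averaged 0.793 ± 0.109 in E14.5 KO and 1.40 ± 0.113 in E16.5 KO, and Lig1 averaged 0.817 ± 0.170 and 1.46 ± 0.181. For both, every KO lay above both wildtype at E16.5. The second probe set of Rpa2 averaged 1.03 ± 0.146 there and overlapped with wildtype (log2 fold change 0.05). On its chosen probe set Fen1 averaged 0.767 ± 0.327 and 0.775 ± 0.242, with KO_541J and KO_541L low at E16.5 (0.570 and 0.578 against 1.36 and 0.644 in wildtype). The other probe set of Fen1 averaged 1.35 ± 0.355 at E16.5, a log2 fold change of 0.39 against -0.32 on the chosen one, so the gene had no shared direction there.

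Nucleotide supply genes make and guard the deoxynucleotide pool. Rrm2, the small subunit of ribonucleotide reductase, gave -0.35, -0.55 and -1.09 on its 3 probe sets at E14.5. The last of these was the lowest fold change of the list, with the KO at 0.799, 0.279, 0.663 and 0.326 against 0.955 and 1.04 in wildtype (SE 0.39, limma adjusted p = 0.637). In the E16.5 pancreata the first read 0.701, 0.593, 0.891 and 0.890 in KO against 1.30 and 0.697 in wildtype, among the 4 lowest t of the list, with a log2 fold change of -0.33 ± 0.30 (limma adjusted p = 0.669) that was 0.12 without WT_622A. Tk1, thymidine kinase, averaged 0.746 ± 0.0938 at E14.5 with all 4 KO below wildtype. Rrm1, the large reductase subunit, averaged 0.855 ± 0.182 and Dut, the dUTPase, 0.888 ± 0.0733, both overlapping with wildtype. The other probe set of Dut averaged 0.667 ± 0.216 and overlapped too. Tyms, thymidylate synthase, was measured on 4 probe sets of its own, and 1 of them read 1.10, 1.25, 1.10 and 1.13 in KO against 0.995 and 1.01 in wildtype at E14.5 (log2 fold change 0.19 ± 0.10, limma adjusted p = 0.760). A fold change of -0.30 on another leaves Tyms without a shared direction.

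Of the chromatin genes, Chaf1b, the middle subunit of chromatin assembly factor 1, averaged 0.720 ± 0.140 at E14.5 and 1.29 ± 0.134 at E16.5, overlapping with wildtype at both. Its other probe set averaged 1.06 ± 0.131 and 1.06 ± 0.136 and also overlapped, so Chaf1b had no shared direction at E14.5. Uhrf1 guides maintenance DNA methylation at the fork. On its chosen probe set it averaged 0.723 ± 0.202 at E14.5 with all 4 KO below wildtype, and 0.848 ± 0.0363 at E16.5. On the other it averaged 0.993 ± 0.115 at E14.5 and overlapped with wildtype. At E16.5 that other probe set stood at 0.835, 0.817, 0.874 and 0.852 in KO against 1.03 and 0.971 in wildtype (log2 fold change -0.24 ± 0.15, limma adjusted p = 0.465). It was the 1 probe set of the list with every KO below both wildtype at that day.

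The G1/S regulators were few. Ccne2, a cyclin that activates CDK2 at the start of S phase, averaged 0.663 ± 0.191 at E14.5 and stood at 1.58, 2.07, 2.06 and 1.32 in KO against 0.725 and 1.28 in wildtype at E16.5. Every KO lay above both wildtype there, KO_591D just so, and the log2 fold change of 0.84 ± 0.30 did not pass (limma adjusted p = 0.172). Ccne1, its paralog, averaged 0.915 ± 0.0965 and 1.14 ± 0.109 on its chosen probe set. Its other stood at 1.30, 1.26, 1.22 and 1.49 in KO against 1.14 and 0.861 in wildtype at E16.5, every KO above both wildtype, with a log2 fold change of 0.41 ± 0.12 that did not pass (limma adjusted p = 0.113). E2f1, the factor that activates many genes of this list, was level with wildtype, averaging 1.05 ± 0.0439 and 1.03 ± 0.0466 on its chosen probe set. A further probe set of E2f1 read 1.14, 1.06, 1.06 and 1.11 in KO against 0.989 and 1.01 in wildtype at E14.5 (log2 fold change 0.13 ± 0.10, limma adjusted p = 0.890).

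The test of the difference between the days, which sets the KO effect at E16.5 against that at E14.5, called 2 of the 93 probe sets, Pole2 and Rpa1 above, both positive (0.349% of all probe sets were called, 0.0755% positive and 0.273% negative). Of the 93, 79 were positive (52.3% of all) and 29 reached an unadjusted p under 0.05 upward and 0 downward, where 5.32% and 5.04% of all stood (10 and 0 with quantile normalization). In 59 of the 93 the fold change was negative at E14.5 and positive at E16.5, as in 23.2% of all probe sets. On the chosen probe sets 24 of 42 genes had that pattern, 12 were lower at both days, 3 higher at both and 3 higher at E14.5 and lower at E16.5. The mean KO effect over both days called 0 of 93 (0.353% of all), with 4 higher and 3 lower at an unadjusted p under 0.05 in limma, where 7.07% and 7.65% of all stood.

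**Figure D4:**
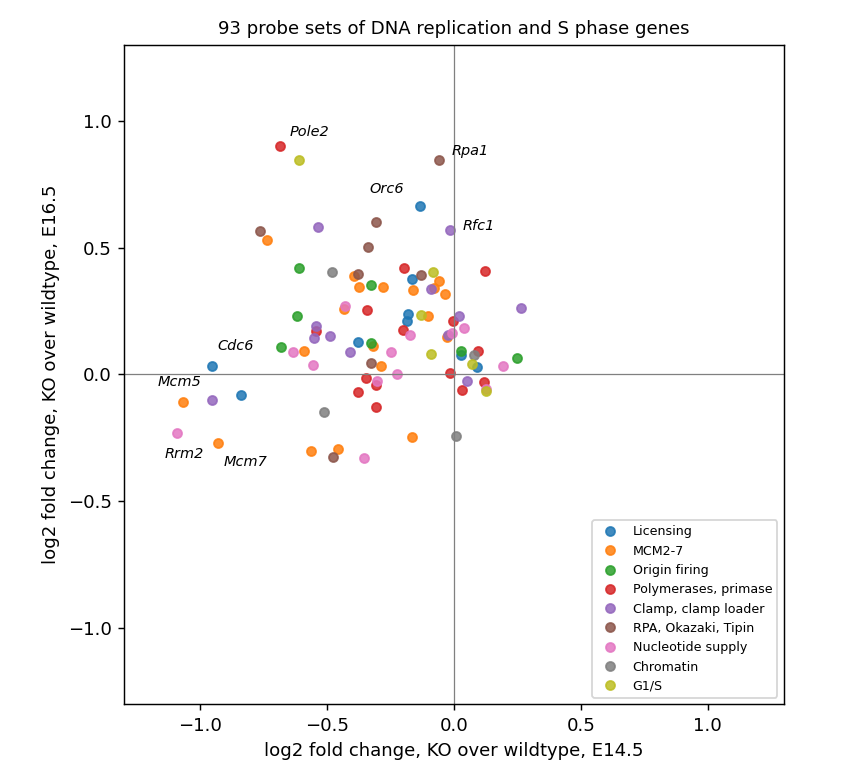
Log2 fold change, KO over wildtype, at E14.5 (horizontal) and at E16.5 (vertical) for the 93 probe sets, coloured by role. The field at the upper left, lower at E14.5 and higher at E16.5, holds 59 of 93. Pole2 (0.90), Rpa1 (0.85) and Ccne2 (0.84) stand highest at E16.5, and Rfc1, also called there, stands at 0.57.

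The KO pancreata of E14.5 were not alike. The median log2 ratio over the 93 probe sets was -0.53 in KO_540G, -0.28 in KO_615B, -0.23 in KO_540C and 0.00 in KO_615A, against 0.02 in WT_522B and -0.02 in WT_522C. KO_540G was the lowest of the 4 KO in 64 of 93 (24.7% of all probe sets) and KO_615A the highest in 59 of 93 (19.4% of all). The list thus lay under wildtype in 3 of the 4 KO and level with it in the other. KO_540G stood apart over the whole array too. It was the highest of the 4 KO in 45.7% of all probe sets (14 of 93 in the list), with the highest KO median over all probe sets, 0.09. With quantile normalization its median over the list was -0.28. Without KO_540G the median fold change was -0.15 and 11 probe sets were lower at an unadjusted p under 0.05, and without KO_615A they were -0.37 and 37. That count was 13 without KO_615B, 4 without WT_522B and 8 without WT_522C, and 0 were higher in each of these fits.

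At E16.5 the KO pancreata lay closer together than the wildtype. The medians were 0.07 in KO_541J, 0.07 in KO_541L, 0.20 in KO_591C and 0.19 in KO_591D, against 0.17 in WT_622A and -0.19 in WT_628G. WT_622A was above WT_628G in 74 of the 93 probe sets (49.9% of all), by a median of 0.36 on the log2 scale, and their median absolute difference was 0.373 over the list against 0.151 over all probe sets. At E14.5 those medians were 0.129 and 0.111. The 2 wildtype pancreata of E16.5 therefore differed more over these genes than over the array, and all 4 KO medians lay between them or just above the higher one. The closer pair, that of E14.5, shares the number in its names and the pair of E16.5 does not. The part of that number in the spread was not tested. Leaving out WT_622A gave 29 probe sets higher and 0 lower at an unadjusted p under 0.05, and leaving out WT_628G gave 5 higher and 8 lower.

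**Figure D5:**
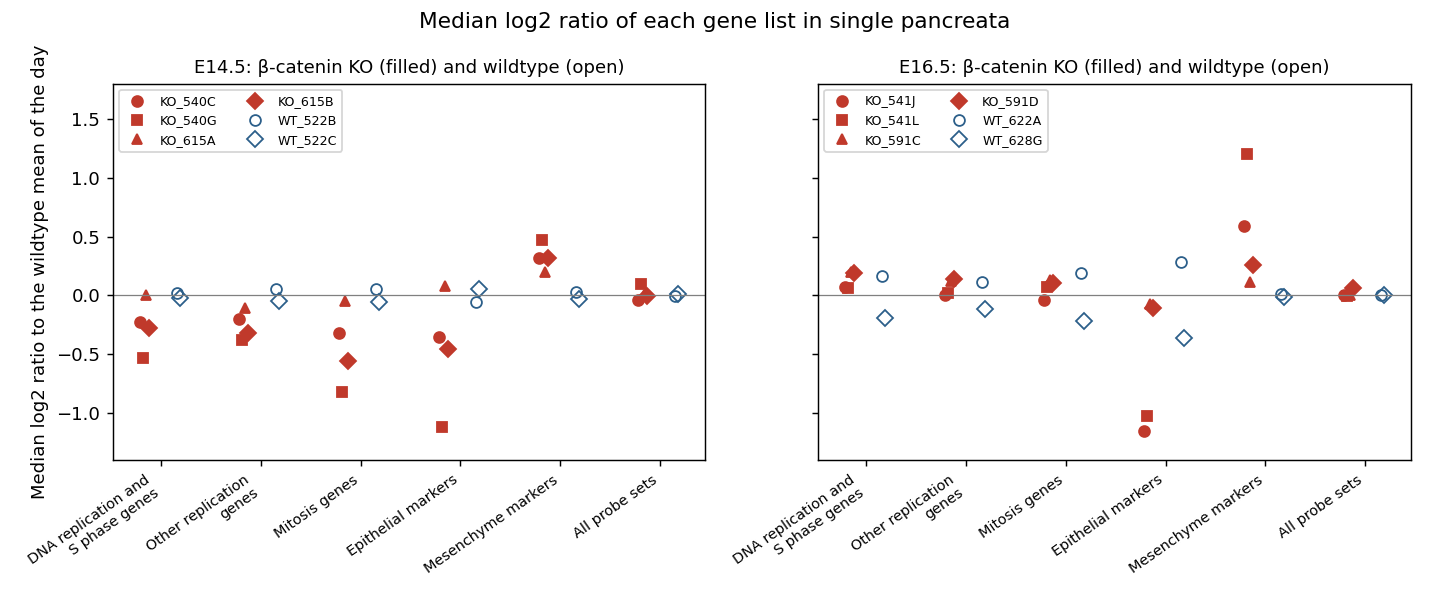
Median log2 ratio to the wildtype mean of the day in single pancreata for the 93 probe sets of the list, and for 5 further sets of genes or probe sets (E14.5 in the left panel, E16.5 in the right), KO filled and wildtype open. At E14.5 the order of the KO pancreata, KO_540G lowest and KO_615A highest, is shared by the replication, mitosis and epithelial lists. At E16.5 the epithelial medians of KO_541J and KO_541L lie near -1 while the replication medians of all 4 KO lie between 0.07 and 0.20.

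Markers of other cell types stood as follows beside these values. Epithelial markers (8 genes) had medians of -1.12 in KO_540G, -0.46 in KO_615B, -0.35 in KO_540C and 0.08 in KO_615A, the order in which the replication genes stood, against -0.05 and 0.05 in wildtype. Mesenchyme markers (11 genes) had medians of 0.20 to 0.47 in those KO, and 11 of 11 were higher on average (53% of all genes). Endocrine markers had medians of 0.10 to 0.66 in the same KO (10 of 12 higher, 5 at an unadjusted p under 0.05, as 2.55% of all genes), and macrophage and leukocyte markers 0.13 to 0.41 (9 of 9 higher). At E16.5 the epithelial medians were -1.16 in KO_541J, -1.02 in KO_541L, -0.08 in KO_591C and -0.11 in KO_591D, against 0.29 in WT_622A and -0.36 in WT_628G, so the wildtype pair stood in the same order as over the replication genes. The acinar median was -3.26 to -0.99 in the E16.5 KO (14 of 18 listed genes measured, 13 lower and 8 called lower, as 2.15% of all genes were), and the mesenchyme median 0.11 to 1.20. The 18S rRNA control probe sets had medians of 0.20, 1.64, 1.58 and 1.64 in KO against -0.30 and 0.25 in wildtype at E14.5, and of -1.29 to -0.78 in KO against 0.30 and -0.38 in wildtype at E16.5. Differences between 3′ and 5′ control probe sets rise with shortened RNA. At E14.5 those of β-actin (0.53) and Gapdh (0.24) were highest in KO_540G. That of the transferrin receptor was highest in KO_615A (0.38, against 0.21 in KO_540G), and that of pyruvate carboxylase in KO_540C (0.27, against 0.08 in KO_540G). At E16.5 pyruvate carboxylase gave -0.93 to -0.68 in KO against 0.34 and -0.41 in wildtype. The transferrin receptor gave -0.23 to -0.05 against -0.01 and 0.01 there, and β-actin and Gapdh overlapped with wildtype. The part of cell makeup, of residual rRNA, of RNA length and of amplification in the results above was not tested.

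Genes that work beside the list were read in the same way, 1 probe set each. Of 45 further replication genes 43 were measured, and at E14.5 34 were lower (47% of all 18193 genes were) and 17 of these were at an unadjusted p under 0.05 (5.51% of all genes). None was called (0.0165% of all genes). At E16.5 limma called 2 of the 43, both higher, where 3.03% of all genes were called and 0.879% called higher. Cdc45, which binds GINS and MCM2-7 in the active helicase, rose to 1.61 ± 0.138 in KO (log2 fold change 0.69, limma adjusted p = 0.0342), and Gins3, a partner of Gins1 and Gins2, to 1.41 ± 0.0453 (0.50, limma adjusted p = 0.0322). Cdc45 also passed the test of the difference (1.20, limma adjusted p = 0.0385), as 0.374% of all genes did. Of 19 E2F and Rb family genes and CDK2 partners 12 were lower at E14.5, and 1 was called at E16.5, Cdc25a, the phosphatase that activates CDK2, which fell to 0.657 ± 0.0642 (log2 fold change -0.61, limma adjusted p = 0.0469). Of 29 measured mitosis genes 26 were lower at E14.5 (median -0.45, none called), and 18 were higher at E16.5. Their medians in single KO were -0.83 in KO_540G, -0.56 in KO_615B, -0.32 in KO_540C and -0.05 in KO_615A, in which KO_540G was again lowest and KO_615A nearest to wildtype.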

How the data were processed

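RNA of 12 embryonic mouse pancreata was amplified in 2 rounds and hybridised to Affymetrix MOE430 2.0 arrays, 1 per pancreas. RMA values were computed by the authors in GeneSpring and then expressed relative to the wildtype average of that day. The deposited values are therefore linear ratios: the 2 wildtype of a day sum to 2 within 3e-07 on every probe set, and no spread of the wildtype mean remains in a ratio of 1. Raw arrays were not used here, so probe sets could not be filtered on signal.

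Of 45101 probe sets, 64 controls were set aside. Log2 ratios were fitted as 4 groups with limma 3.58.1 in R 4.3.3 (8 residual degrees of freedom, moderated variances, two-sided), with Benjamini-Hochberg adjustment over 45037 probe sets and 0.05 as the limit. The log2 wildtype mean lies under 0 where the pair differs, the more so the wider the pair, and this raises the log2 fold change. On 1 probe set of Mcm5 at E16.5 the wildtype stood at 1.36 and 0.639. The KO mean ratio there was 0.957 and the log2 fold change 0.03. Over this list the pair differed more at E16.5 than at E14.5. Platform annotation gave gene names, and probe sets with several symbols were not named. Probe sets ending in _s_at or _x_at may detect related transcripts. For a gene with several probe sets, 1 was chosen by its ID alone. Full values are given for probe sets past the limit, for the 4 highest and the 4 lowest t of each day, and for genes whose probe sets (2 or more) all had the KO on 1 side of both wildtype. Some further genes were chosen after their values were seen. The members and lists were chosen with earlier results of these data known, so no set was tested and list counts are set beside those of all probe sets. Promoters are RefSeq windows, build GRCm38.p6. Whether the pancreata of a group came from separate litters is not stated. The number in a name (KO_540C and KO_540G share one, as do WT_522B and WT_522C) was used as a random block (statmod 1.5.0). Other alternatives were trended and robust variance, single-day fits, quantile normalization, median centring, array weights, the methods' t-test, leaving out each array, other probe set choices, and leaving out probe sets at the lowest ratio, 0.01. The fit was tested on simulated data with independent noise and planted changes at E14.5, which does not judge the calls above. Python 3.11.15 with matplotlib 3.10.9 made the figures.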

Additional observations from a re-analysis of the deposited data

Results flagged for a closer look

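In 4 of 110 groups of 4 KO values (each chosen or fully given probe set, and the median over the list, at each day) a single pancreas stood apart by Dixon's test at its usual limit, where chance at 1 in 20 gives 5.5. The gap ratio is the distance of that pancreas to the nearest other over the range of all 4. Orc6 at E16.5 stood at 1.20 in KO_591D and at 1.68 to 1.78 in the other KO, a gap ratio of 0.859. Ccne1 at E16.5 stood at 0.974 in KO_541J and at 1.17 to 1.20 in the others, a gap ratio of 0.868. Pola2 at E14.5 stood at 0.910 in KO_540C and at 1.06 to 1.08 in the others on its chosen probe set, a gap ratio of 0.885, and on another of its probe sets at 0.892 in KO_540C and at 0.747 to 0.763 in the others, a gap ratio of 0.876.

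The KO effect differed between the days for Pole2, by 1.59 on the log2 scale, and for Rpa1, by 0.90, E16.5 minus E14.5, by limma's test of that difference (adjusted p = 0.0423 and 0.0477).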

How the results depend on the processing

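At E14.5 no probe set of the list was called under any alternative. At E16.5 the 3 calls became 0 with each day fitted on its own arrays, with the methods' t-test, with quantile normalization and with a trended and robust variance, and 1 to 4 when 1 pancreas was left out. The 1 was Rpa1. Median centring gave 2, and array weights or the number in the name as a random block 4, adding Orc6. At the methods' threshold without adjustment their t-test placed 6 lower and 2 higher at E14.5, and 1 lower and 13 higher at E16.5, and after Benjamini-Hochberg 0 at either day. The 2 calls of the difference between days became 0 with median centring, quantile normalization and a trended and robust variance, 1 without probe sets ending in _x_at or _s_at, and 0 to 3 when 1 pancreas was left out. The mean over both days called 2 with array weights (Rfc1 and Rpa1), against 0, and 0 to 1 with 1 pancreas left out. The median fold change was -0.37 to -0.15 at E14.5 and -0.0022 to 0.36 at E16.5 with 1 pancreas left out. Quantile normalization took the median of KO_540G to -0.28 from -0.53 and that of KO_591D to 0.11 from 0.19. With 1 probe set per gene, KO_591D was at 0.073 and KO_541J at -0.030 (0.07 with all). With 1 pancreas left out, the E16.5 fold change of Rrm2 was -0.78 to 0.12, that of Mcm6 -0.85 to 0.26 and that of Mcm2 -0.82 to 0.32, each on the probe set given in full, lowest without WT_628G and positive without WT_622A. The cause of these changes was not tested. Leaving out the probe sets that hold the lowest ratio of the file, 0.01 (4 values, 0 of them of the list), kept the direction and the side of the limit of every probe set given in full, and call counts were not recomputed under it. Unadjusted counts under quantile normalization stand beside the main ones above. No paired analysis was possible because the names carry no replicate number shared by KO and wildtype.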
